A study of Mus musculus with 8 samples.

Results

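Teneurins, latrophilins and Flrt proteins are cell-surface adhesion proteins encoded by 10 genes, Tenm1 to Tenm4, Adgrl1 to Adgrl3 and Flrt1 to Flrt3, and all 10 were chosen by name from the 32285 genes of the deposited matrices. RNA and chromatin accessibility of these genes were examined in single-nucleus multiome libraries, which read both from the same nucleus, of the hippocampus of male wild-type C57BL/6J pups at postnatal day 21. The dams were adult, 8 weeks old by the labels, while the published methods give a range that starts at this age. They ate a diet with folic acid (FA) at 2 mg/kg (MF group) or at 20 mg/kg (HF group) from before mating through lactation. Each group had 2 libraries, MF1, MF2, HF1 and HF2 after the replicate numbers of the labels, and each library had a GEX (RNA) and an ATAC (accessibility) part. Neither the number of pups behind a library nor whether the 2 libraries of a group came from separate litters was stated, so p-values between the groups measure the spread between these libraries. Those between cell classes or sets of nuclei come from fits with the library as a term. They measure how such differences vary from library to library.

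Teneurins are large transmembrane proteins that sit on axons and dendrites and act as ligands across the synaptic cleft. Latrophilins are adhesion G protein-coupled receptors, and they bind teneurins and Flrt proteins at separate parts of their extracellular domain. Flrt proteins are leucine-rich repeat proteins that also bind the Unc5 receptors, which guide axons and migrating neurons by repulsion. In the hippocampus these proteins are known for matching axons to target regions and for the choice of synaptic layers, and teneurin-3 and latrophilin-2 are known as a ligand and receptor of the projection from CA1 to the subiculum.

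After filtering, 11518 of 14297 nuclei (80.6%) were kept, with 20151562 to 29243072 UMIs and a median of 6117 to 7053 UMIs per nucleus in each library. Classes were rebuilt from the RNA without the 10 genes and named after markers. Each abbreviation thus stands for a marker-named, "-like" class whose borders may differ from those of the study. The neuron classes were CA1 (895 nuclei), CA3 (491), mature dentate granule neurons (DG-M, 1477), immature dentate granule neurons (DG-i, 926), other excitatory neurons (OEXC, 575), inhibitory neurons (INH, 535) and Cajal-Retzius cells (CR, 134). The others were astrocytes (AST, 1263), oligodendrocyte progenitors (OPC, 564), committed oligodendrocyte precursors (COP, 363), oligodendrocytes (ODC, 806), microglia (MG, 690) and vascular and leptomeningeal cells (VAS, 156). In 12 of these 13 classes more than 50% of the defining markers had their highest mean level in their own class, and in OEXC 4 of 11 did. Of the nuclei, 14.3 to 16.3% per library had a doublet score over 0.05, and 111 barcodes occurred in more than 1 library.

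The genes differ widely in length, and unspliced nuclear RNA is counted along the whole gene. On GRCm38 (mm10), Tenm1 lies at chrX:42527866-43429126 on the minus strand, Tenm2 at chr11:36006656-37235964 (minus), Tenm3 at chr8:48227682-48843951 (minus) and Tenm4 at chr7:96171246-96911093 (plus). Adgrl1 lies at chr8:83900105-83941954 (plus), Adgrl2 at chr3:148815583-148990555 (minus) and Adgrl3 at chr5:81020138-81825133 (plus). Flrt1 lies at chr19:7092001-7105729 (minus), Flrt2 at chr12:95692226-95785215 (plus) and Flrt3 at chr2:140650914-140671469 (minus). Flrt1 overlaps Macrod1 and Flrt3 overlaps Macrod2, each on the opposite strand, and the sources used here do not say whether strand was used in counting. This limit holds for every RNA value of Flrt1 and Flrt3 below, also where Macrod1 or Macrod2 is not named. Per 100 kb of gene, the level over all nuclei in CPM (the UMIs of the gene, scaled to counts per 1e6 UMIs) was highest for Tenm2 (377), followed by Flrt1 (250), Flrt3 (233), Adgrl1 (225), Adgrl3 (185), Flrt2 (173), Tenm3 (120), Tenm4 (66.7), Adgrl2 (59.3) and Tenm1 (48.8). All other levels are CPM of 1 gene compared between classes, and values follow the order MF1, MF2, HF1 and HF2.

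For 4 genes, the middle 200 bases are shown of the non-coding region with the smallest p in 1 contrast of accessibility described further on (CA3 against CA1 for Tenm3 and Adgrl2, DG-i against DG-M for Tenm4, DG-M against CA1 for Flrt2). The 250 bases before the start are shown for Flrt3, which had no UMI in MG, and for Adgrl1, which had the narrowest range over classes. The whole regions lie at chr8:48627585-48628536 in Tenm3, 46624 bp from the nearest start site, at chr3:148922311-148923260 in Adgrl2 (31850 bp), at chr7:96786283-96787110 in Tenm4 (8762 bp) and at chr12:95746675-95747582 in Flrt2 (51771 bp), all within introns, on GRCm38. Promoter sequences are from RefSeq GRCm38.p6 and are given on the strand of the gene. Capitals mark TGANTCA, the motif bound by AP-1 factors, in the regions, and CG dinucleotides in the promoters.
Tenm3 region, chr8:48627961-48628160, plus strand: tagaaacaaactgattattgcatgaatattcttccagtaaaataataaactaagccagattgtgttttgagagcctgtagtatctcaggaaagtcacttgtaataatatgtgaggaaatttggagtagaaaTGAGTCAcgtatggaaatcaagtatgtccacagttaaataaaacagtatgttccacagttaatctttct
Adgrl2 region, chr3:148922686-148922885, plus strand: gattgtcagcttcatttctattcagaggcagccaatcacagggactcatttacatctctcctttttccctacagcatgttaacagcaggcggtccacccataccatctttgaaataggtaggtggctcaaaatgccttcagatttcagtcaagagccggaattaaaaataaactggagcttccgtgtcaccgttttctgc
Tenm4 region, chr7:96786597-96786796, plus strand: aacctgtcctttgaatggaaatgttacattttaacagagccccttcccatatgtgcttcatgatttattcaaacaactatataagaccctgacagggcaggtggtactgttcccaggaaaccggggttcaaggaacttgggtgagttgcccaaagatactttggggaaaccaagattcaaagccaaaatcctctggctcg
Flrt2 region, chr12:95747029-95747228, plus strand: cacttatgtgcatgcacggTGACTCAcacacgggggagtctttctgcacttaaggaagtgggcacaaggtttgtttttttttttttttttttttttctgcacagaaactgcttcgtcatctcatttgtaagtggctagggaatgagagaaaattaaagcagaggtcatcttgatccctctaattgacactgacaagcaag
Flrt3 promoter, chr2:140671477-140671726, minus strand: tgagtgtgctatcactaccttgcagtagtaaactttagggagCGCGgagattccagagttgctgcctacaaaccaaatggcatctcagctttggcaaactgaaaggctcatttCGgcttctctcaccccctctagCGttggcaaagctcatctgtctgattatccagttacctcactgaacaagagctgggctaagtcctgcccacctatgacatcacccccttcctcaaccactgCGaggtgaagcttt
Adgrl1 promoter, chr8:83899848-83900097, plus strand: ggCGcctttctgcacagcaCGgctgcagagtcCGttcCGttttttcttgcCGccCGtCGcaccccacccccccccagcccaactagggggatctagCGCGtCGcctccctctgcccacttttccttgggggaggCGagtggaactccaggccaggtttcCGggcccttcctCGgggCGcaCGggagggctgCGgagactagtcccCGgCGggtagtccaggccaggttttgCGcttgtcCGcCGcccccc
TGANTCA, searched on both strands, occurred 1 time each in the Tenm3 and Flrt2 windows and was not found in those of Adgrl2 and Tenm4, while 10.4% of all 154762 windows of the same length held it (6.75% of 32851 promoters). CAGATG, the E-box of proneural factors, was found 1 time in the Flrt3 promoter and in none of the other printed sequences, against 28.1% of windows and 14.4% of promoters. Neither printed promoter held TGANTCA. The Flrt3 promoter held 5 CG and that of Adgrl1 21, with a median of 6 over all promoters, of which 55.6% had at least as many as Flrt3 and 16.3% at least as many as Adgrl1.

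**Figure D1:**
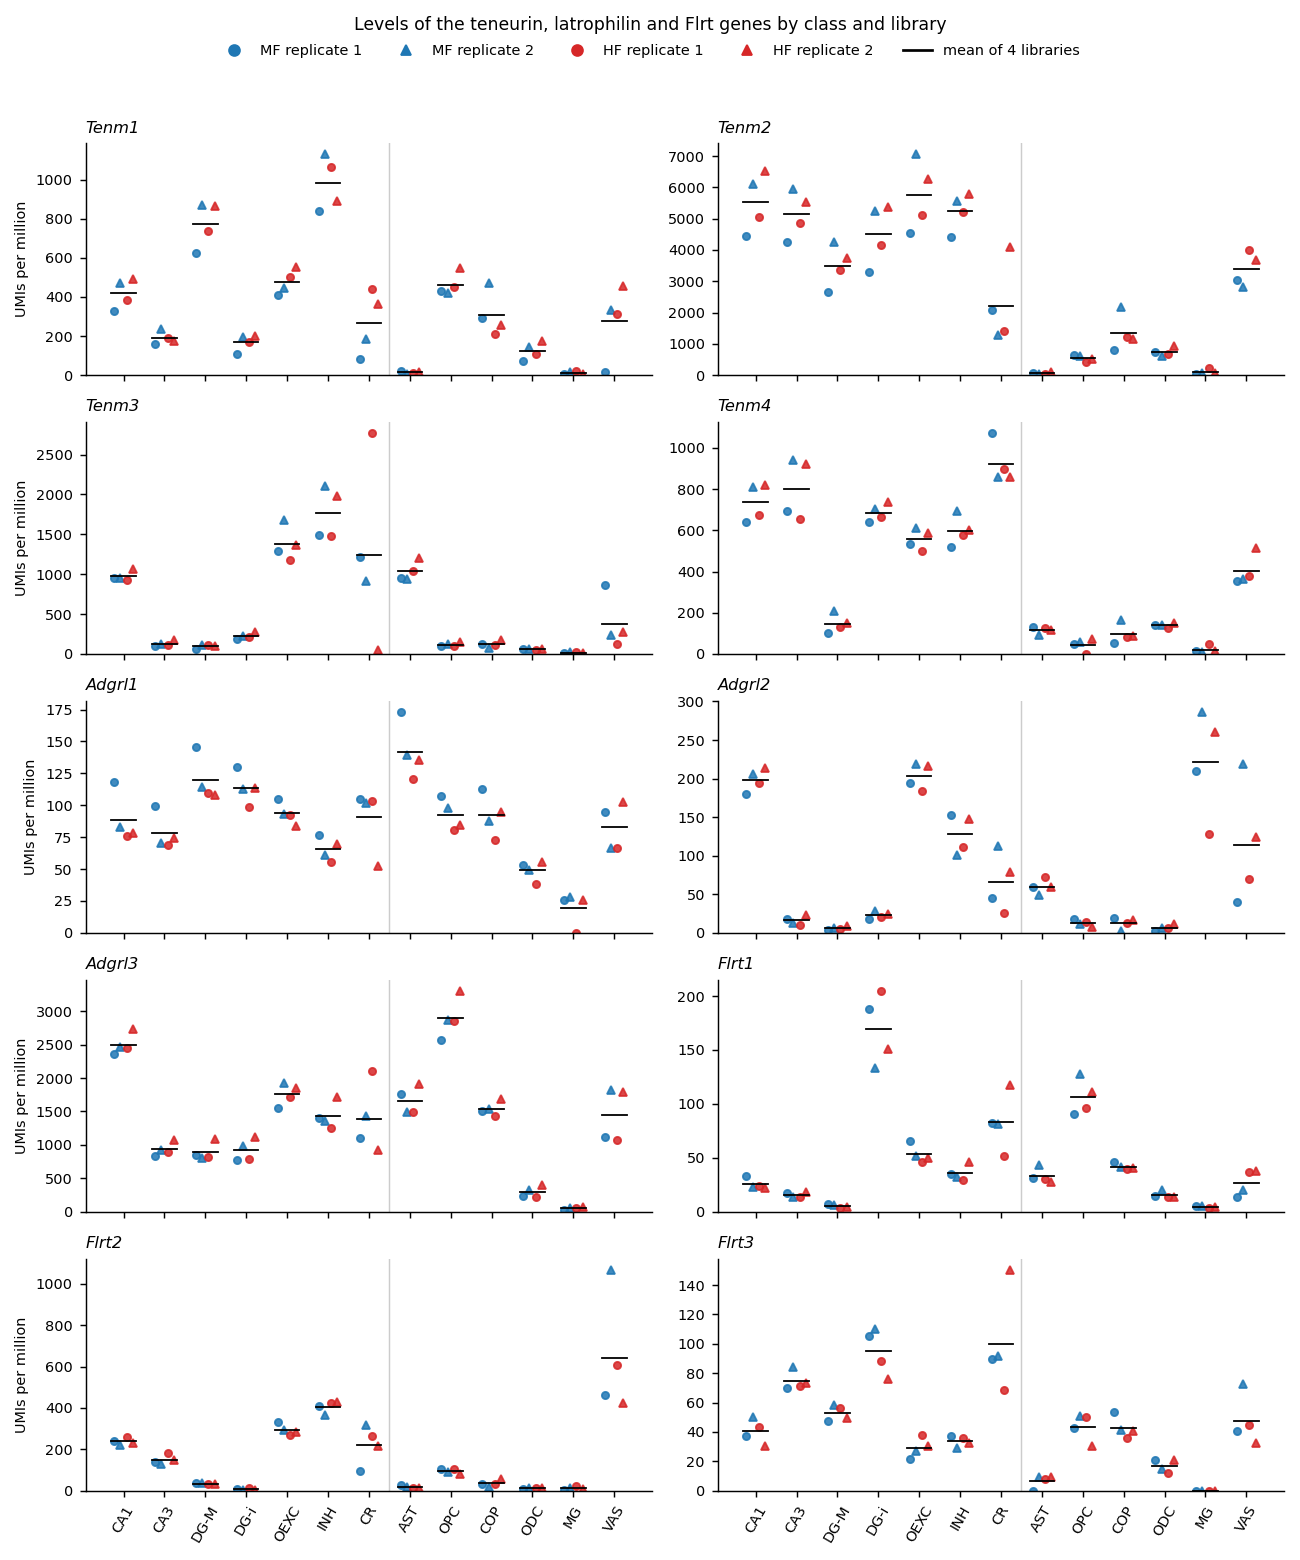
Level of each of the 10 genes (CPM, linear axis from 0) in 13 classes, with 1 point per library (MF blue, HF red, circles replicate 1, triangles replicate 2) and a bar at the mean of the 4 libraries. Tenm3 and Adgrl2 are high in CA1 and low in CA3 and DG-M, Flrt1 is highest in DG-i, Adgrl3 in OPC and CA1, and Adgrl2 is also high in MG.

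Among the subfields, the ligand Tenm3 and the receptor Adgrl2 were both high in CA1 and low in CA3 and in the dentate gyrus. Tenm3 was at 949, 948, 929 and 1071 CPM in CA1, at 94.4, 122, 108 and 170 in CA3 and at 68.1, 114, 109 and 96.8 in DG-M. Every CA1 library lay above every CA3 and DG-M library, while CA3 and DG-M overlapped. The fold changes, from a quasi-likelihood fit in edgeR over all genes and classes with the library as a term, were 8.08-fold lower in CA3 than in CA1 (log2 −3.01 ± 0.32 SE, FDR 4.82e-12) and 10.9-fold lower in DG-M than in CA1 (log2 −3.45 ± 0.32, FDR 1.85e-14). The SE given with every log2 fold change is its size divided by the square root of the F statistic of edgeR, and a gene was called at FDR under 0.05 and at least 1.2-fold. Where a side of a contrast held several classes, in RNA or accessibility, it was the mean of their fitted log2 levels. Such a side differs from their mean CPM and is pulled down by a class with a low level.

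Adgrl2 was at 179, 206, 194 and 213 CPM in CA1, at 18.6, 13.1, 10.2 and 22.7 in CA3 and at 3.77, 6.63, 5.09 and 9.51 in DG-M. Their ranges did not overlap, with CA1 at the top and DG-M at the bottom. Adgrl2 was 12.5-fold lower in CA3 than in CA1 (log2 −3.64 ± 0.16) and 34.7-fold lower in DG-M than in CA1 (log2 −5.12 ± 0.17), and it was also lower in DG-M than in CA3 (log2 −1.47 ± 0.28).

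The other teneurins had different orders. Tenm4, a teneurin also known from myelination, was at 642, 807, 675 and 821 CPM in CA1 and at 695, 942, 653 and 919 in CA3, but at 99.4, 209, 131 and 151 in DG-M. CA1 and CA3 overlapped (log2 0.09 ± 0.16, not called) and DG-M lay below both in every library, by log2 −2.45 ± 0.18 against CA1 and −2.54 ± 0.18 against CA3. Tenm1 ran the other way, with 327, 472, 387 and 491 CPM in CA1, 158, 234, 191 and 175 in CA3 and 627, 869, 737 and 867 in DG-M. Its libraries separated into the order DG-M, CA1, CA3 with no overlap (DG-M against CA3 log2 1.94 ± 0.19, DG-M against CA1 0.77 ± 0.18, CA3 against CA1 −1.17 ± 0.19). At a higher cluster resolution the mean level of Tenm1 in CA1 was 230 CPM and its difference between CA3 and CA1 was not called (log2 −0.30, FDR 0.301), while DG-M was then above CA1 by 1.64. Tenm2 varied least of the teneurins among the subfields, with 4439, 6108, 5050 and 6531 CPM in CA1, 4242, 5951, 4859 and 5549 in CA3 and 2648, 4248, 3351 and 3752 in DG-M. CA1 and CA3 overlapped, and DG-M was lower than CA1 by log2 −0.78 ± 0.21 and than CA3 by −0.65 ± 0.21. Both of these calls were lost without the library term and with doublets left out, and the one against CA3 also at the higher resolution (−0.53, FDR 0.0709).

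Of the other latrophilins, Adgrl3 was at 2353, 2469, 2445 and 2728 CPM in CA1, at 841, 919, 892 and 1073 in CA3 and at 851, 806, 812 and 1087 in DG-M. CA1 lay above the other subfields in every library (CA3 log2 −1.46 ± 0.15, DG-M −1.62 ± 0.15), and CA3 and DG-M overlapped (−0.16 ± 0.15, not called). Adgrl1 had the narrowest range over all classes of the 9 genes with UMIs in every class, at 7.17-fold between its highest and lowest class mean. It was at 118, 82.9, 76.3 and 77.9 CPM in CA1, at 99.2, 70.7, 69.1 and 74.1 in CA3 and at 146, 114, 110 and 108 in DG-M, and MF1 was the highest library in each of these subfields. DG-M was above CA3 by log2 0.52 ± 0.09 and above CA1 by 0.31 ± 0.09, and the latter call was lost without MF replicate 2 (0.24, FDR 0.0653) and without the library term (FDR 0.132).

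Among the subfields Flrt1 and Flrt2 were highest in CA1 and lowest in DG-M, while Flrt3 had another order. Flrt2, a ligand of latrophilins and of Unc5d, was at 241, 219, 260 and 233 CPM in CA1, at 140, 127, 182 and 149 in CA3 and at 35.6, 34.7, 30.3 and 32.3 in DG-M. These 3 ranges did not overlap, and Flrt2 was 7.82-fold lower in DG-M than in CA1 (log2 −2.97 ± 0.14) and 1.62-fold lower in CA3 than in CA1 (log2 −0.70 ± 0.12). Flrt3, which binds latrophilin-3 at excitatory synapses, was highest in CA3, with 36.9, 50.3, 43.5 and 30.6 CPM in CA1, 70.1, 84.3, 71.0 and 73.3 in CA3 and 47.2, 58.5, 56.0 and 49.6 in DG-M. CA3 lay above the other subfields in every library (CA3 against CA1 log2 0.86 ± 0.12, DG-M against CA3 −0.59 ± 0.12), and DG-M and CA1 were not called apart (0.28 ± 0.12, FDR 0.0622). Macrod2, the gene that Flrt3 overlaps, was at log2 −0.17 ± 0.14 between CA3 and CA1 and was not called. Flrt1 was low in all 3 subfields, with 32.9, 23.2, 24.1 and 22.4 CPM in CA1, a mean of 15.7 in CA3 and 7.53, 5.85, 3.49 and 4.42 in DG-M, and both differences from CA1 were called (CA3 log2 −0.73 ± 0.17, DG-M −2.39 ± 0.19).

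Counted over the 10 genes, 1 rose and 6 fell from CA1 to CA3, where 22.4% of 13512 tested genes were called (11.6% higher and 10.8% lower). From CA1 to DG-M, 2 rose and 7 fell, where 40.2% of all genes were called (20.4% higher and 19.8% lower), and from CA3 to DG-M 2 rose and 6 fell (37.9% of all genes, 18.5% higher and 19.4% lower). The median log2 fold change of the 10 was −0.71 in CA3 and −2.0 in DG-M against CA1, with medians over all genes of 0.01 and 0.02, and −0.62 between DG-M and CA3, with 0.01 over all genes. Among 22 known binding or signalling partners, 9 rose and 3 fell from CA1 to CA3, including the netrin receptor Unc5c (log2 1.98 ± 0.18) and the FGF receptor Fgfr1 (0.87 ± 0.12). From CA1 to DG-M 2 partners rose and 10 fell, including the presynaptic adhesion protein Nrxn3 (−2.46 ± 0.22) and the postsynaptic scaffold Shank1 (−1.16 ± 0.10). From CA3 to DG-M 4 partners rose and 13 fell, with Nrxn3 at −3.05 ± 0.23, Unc5c at −2.12 ± 0.18, Fgfr1 at −1.45 ± 0.12 and the Slit receptor Robo1 at −1.46 ± 0.16.

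Between immature and mature granule neurons the Flrt and teneurin genes changed in opposite directions within each family. Flrt1 was at 188, 133, 205 and 151 CPM in DG-i against 7.53, 5.85, 3.49 and 4.42 in DG-M. All 4 libraries were far apart, and Flrt1 was 27.0-fold higher in DG-i (log2 4.76 ± 0.16, FDR 6.15e-35). Macrod1, on the opposite strand of Flrt1, was 8.12-fold higher in the same contrast (log2 3.02 ± 0.15), so reads of the pair cannot be told apart if strand was not used. Flrt2 went down, from 35.6, 34.7, 30.3 and 32.3 CPM in DG-M to 8.17, 3.14, 13.8 and 1.62 in DG-i, with no overlap (log2 −2.38 ± 0.36). With a library left out its value ran from −3.05 to −2.17. Flrt3 was at 105, 110, 88.0 and 76.2 CPM in DG-i, above its DG-M level in every library (log2 0.60 ± 0.14), and Macrod2 was at −0.10 ± 0.14.

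Tenm4 was at 638, 703, 665 and 738 CPM in DG-i and was 3.95-fold higher there than in DG-M (log2 1.98 ± 0.18), with no overlap between the classes. Tenm1 was at 106, 196, 172 and 201 CPM in DG-i and was 5.59-fold lower there than in DG-M (log2 −2.48 ± 0.21), again with no overlap. Tenm3 was at 192, 226, 217 and 271 CPM in DG-i, above DG-M in every library (log2 0.96 ± 0.33, FDR 0.0135), a call lost in DESeq2 (FDR 0.0908) and without MF replicate 1 (FDR 0.0821). Tenm2 (log2 0.10 ± 0.21) and Adgrl3 (−0.22 ± 0.15) were not called. Adgrl2 was higher in DG-i (1.6 ± 0.34, at 18.4, 28.3, 20.2 and 24.3 CPM), still below CA1 in every library, and Adgrl1 was lower (−0.33 ± 0.11), a call lost without the library term. In all, 5 of the 10 genes were higher and 3 lower in DG-i, where 43.3% of all genes were called (22.8% higher and 20.6% lower), with a median log2 fold change of 0.35 for the 10 and 0.03 for all genes. Of the 22 partners 7 were higher and 8 lower, including Fgfr1 (3.45 ± 0.11), Robo1 (2.04 ± 0.16) and the contactin Cntn6 (2.58 ± 0.26) on the higher side and Unc5c (−5.15 ± 0.27) on the lower side.

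Inhibitory neurons carried the highest level of Tenm3 and Tenm1 of all classes. Tenm3 was at 1496, 2102, 1484 and 1974 CPM in INH, above CA1 in every library and 7.31-fold above the mean log2 level of CA1, CA3 and DG-M (log2 2.87 ± 0.22), and its INH range overlapped that of OEXC. Tenm1 was at 838, 1130, 1066 and 892 CPM in INH (log2 1.24 ± 0.14), a range that overlapped that of DG-M. Flrt2 was at 407, 368, 422 and 429 CPM, above every CA1, CA3 and DG-M library (log2 1.85 ± 0.10). Adgrl2 was at 153, 102, 111 and 147 CPM, below CA1 in every library and above the mean log2 level of the 3 subfields (log2 2.16 ± 0.13). Its class means were 128 CPM in INH, 198 in CA1, 16.1 in CA3 and 6.25 in DG-M. Flrt1 (1.36 ± 0.15) and Tenm4 (0.35 ± 0.14) were also higher, the latter call lost under 5 alternatives, while Flrt3 (−0.75 ± 0.13) and Adgrl1 (−0.60 ± 0.09) were lower, and Tenm2 (0.10 ± 0.17) and Adgrl3 (0.08 ± 0.12) were not called. This made 6 higher and 2 lower of 10, where 42.5% of all genes were called (22.8% higher and 19.7% lower), with medians of 0.80 for the 10 and 0.01 for all genes. Of the partners 9 were higher and 4 lower, with Cntn6 at 4.08 ± 0.12, the Flrt receptor Unc5d at 3.23 ± 0.20, Unc5c at 1.43 ± 0.13 and Robo1 at 1.29 ± 0.12.

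Within INH, Adgrl2 separated the Lhx6 lineage (INH-Lhx6, 254 nuclei) from the Adarb2 lineage (INH-Adarb2, 174 nuclei). The former holds parvalbumin and somatostatin cells, and the latter was here a cluster led by Vip and one led by Syt6. The rest of the 535 INH nuclei stayed unnamed and outside both, among them a cluster of 36 nuclei led by Sv2c, Kit and Ndnf. Adgrl2 was at 272, 168, 216 and 262 CPM in INH-Lhx6 and at 24.2, 19.6, 8.67 and 37.7 in INH-Adarb2. The lineages did not overlap, and the level was 9.78-fold higher in INH-Lhx6 (log2 3.29 ± 0.26, FDR 1.07e-16). Tenm1 showed the reverse, with 440, 689, 750 and 537 CPM in INH-Lhx6 below 947, 1565, 949 and 995 in INH-Adarb2 (log2 −0.94 ± 0.20). Tenm2 (0.69 ± 0.21), Flrt3 (−1.07 ± 0.28) and Flrt1 (−0.69 ± 0.23) also passed the test, but Tenm2 was lost under 7 alternatives, Flrt1 under 9 and Flrt3 without MF replicate 1 (−0.89, FDR 0.0657). Hence 2 of the 10 genes were higher and 3 lower, where 12.1% of 12602 genes were called (6.18% higher and 5.87% lower), with medians of −0.01 for the 10 and 0.02 for all genes. Tenm3 (−0.05 ± 0.30), Tenm4 (−0.17 ± 0.18), Adgrl1 (0.06 ± 0.18), Adgrl3 (0.07 ± 0.15) and Flrt2 (0.03 ± 0.15) were not called. Among partners 1 was higher and 5 lower, including the neurexins Nrxn3 (−0.85 ± 0.21) and Nrxn2 (−0.53 ± 0.14) and the scaffold Shank2 (−1.43 ± 0.18).

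Against glia, taken as the mean log2 level of AST, OPC, ODC and MG, 9 of the 10 genes were higher in neurons, taken as the mean log2 level of CA1, CA3, DG-M, DG-i and INH. Of all genes 60.3% were called in this contrast (31.7% higher and 28.5% lower), with medians of 1.95 for the 10 and −0.02 for all genes. Tenm2 differed most, by 22.8-fold (log2 4.51 ± 0.13), followed by Flrt3 (3.54 ± 0.21), Tenm4 (3.14 ± 0.12) and Tenm1 (3.01 ± 0.14). With doublets left out the difference was 5.44 for Tenm2, 4.14 for Tenm1 and 3.83 for Tenm4. Flrt2 (2.11 ± 0.21), Tenm3 (1.79 ± 0.21), Adgrl3 (1.39 ± 0.09) and Adgrl1 (0.75 ± 0.08) were also higher. The call of Flrt1 (0.38 ± 0.16, FDR 0.0342) was lost under 5 alternatives, and Adgrl2 was not called (0.25 ± 0.16). Of the partners 14 were higher and 4 lower, with Shank2 at 3.14 ± 0.11, Nrxn3 at 3.06 ± 0.12, Robo1 at 2.81 ± 0.10 and Shank1 at 2.72 ± 0.12.

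The glial classes were each set against the mean log2 level of the other 3. In AST, Tenm3 was at 953, 940, 1046 and 1204 CPM, a range that overlapped CA1, and was 22.5-fold above the other glia (log2 4.49 ± 0.28). The lowest Tenm3 level of any class was the mean of 17.9 CPM in MG. Adgrl3 (2.40 ± 0.13), Adgrl1 (1.82 ± 0.12), Adgrl2 (1.37 ± 0.22), Tenm4 (1.33 ± 0.21) and Flrt1 (0.90 ± 0.24) were higher in AST as well, Tenm1 (−2.62 ± 0.43) and Tenm2 (−2.31 ± 0.25) were lower, with smaller values when doublets were left out (−1.40 and −1.35), and Flrt2 (−0.25 ± 0.37) and Flrt3 (0.81 ± 0.76) were not called. In mean CPM, AST was below another glial class for Adgrl3 (1660, OPC 2898), Adgrl2 (59.8, MG 221), Tenm4 (117, ODC 140) and Flrt1 (33.3, OPC 106). Over the alternatives Tenm4 in AST ran from 1.24 to 2.26 on the log2 scale. In AST 43.6% of all genes were called (23.7% higher and 19.8% lower), with medians of 1.12 for the 10 and −0.03 for all genes. Among partners 8 were higher and 5 lower, with Fgfr1 at 3.43 ± 0.15 and Fgfr3, a receptor typical of astrocytes, at 7.35 ± 0.22.

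OPC had the highest level of Adgrl3 of all classes, at 2568, 2862, 2861 and 3302 CPM, overlapping CA1 and 9.95-fold above the other glia (log2 3.31 ± 0.13). Tenm1 was at 430, 422, 449 and 549 CPM in OPC, 17.4-fold above the other glia (4.12 ± 0.22, and 5.71 with doublets left out, where mean Tenm1 in ODC was 7.96 in place of 124 CPM), and Flrt1 was at 91.0, 128, 96.3 and 111 CPM (2.95 ± 0.20), below DG-i in every library. Flrt2 was at 103, 90.5, 106 and 82.5 CPM in OPC (2.93 ± 0.27). Flrt3 (mean 43.7 CPM, 4.09 ± 0.45), Tenm2 (mean 548 CPM, 1.71 ± 0.20) and Adgrl1 (0.84 ± 0.16) were also higher, and Adgrl2 was lower (−1.77 ± 0.36). Macrod2, opposite Flrt3, was higher in OPC as well (2.52 ± 0.13). Tenm4 was at 46.4, 55.7, 2.01 and 70.7 CPM in OPC, and its lower call (−0.78 ± 0.29) rested on HF1, which had 1 UMI, since without HF replicate 1 it was −0.11 (FDR 0.848). Tenm3 was not called (0.15 ± 0.40). In OPC 36.5% of all genes were called (21.5% higher and 15.0% lower) against 7 higher and 2 lower of the 10, with medians of 2.32 and 0.00, and of the partners 12 were higher and 3 lower, including Cntn6 (5.80 ± 0.23), Nrxn3 (3.89 ± 0.17) and Nrxn2 (2.92 ± 0.11).

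MG had Adgrl2 at 210, 286, 128 and 261 CPM, a range that overlapped CA1, and 9.32-fold above the other glia (log2 3.22 ± 0.21). It was the only one of the 10 genes that was higher in MG. The other 9 were lower, where 52.6% of all genes were called (22.8% higher and 29.8% lower), and the medians were −2.92 for the 10 and −0.18 for all genes. Among them were Adgrl3 (−4.91 ± 0.21, mean 52.3 CPM), Tenm3 (−3.76 ± 0.56), Flrt1 (−3.35 ± 0.42), Tenm1 (−3.31 ± 0.46), Adgrl1 (−2.53 ± 0.23), Tenm4 (−2.32 ± 0.34) and Tenm2 (−1.93 ± 0.27), and Flrt2 (−1.85 ± 0.51), whose call was lost without MF replicate 1 (−1.16, FDR 0.0845). Without HF replicate 1 the differences were larger, at −3.93 for Tenm1, −3.18 for Tenm4, −2.85 for Tenm2 and −2.74 for Flrt2, and with the members used in clustering they were −2.04 for Tenm1 and −1.15 for Tenm2. Flrt3 had 0 UMIs in all 4 MG libraries among 1272026 UMIs, which allows up to 2.36 CPM over the class at 3 counts (counting error only). Of the partners 2 were higher and 15 lower, with Unc5c at −5.51 ± 0.29 and Nrxn2 at −4.22 ± 0.22.

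In ODC the values depended on which nuclei were counted in the class. Tenm2 was 5.73-fold (log2 2.52 ± 0.18) and Tenm1 3.50-fold (1.81 ± 0.25) above the mean log2 level of the other glia, Flrt3 (2.53 ± 0.56) and Tenm4 (1.77 ± 0.20) were higher too, and Adgrl2 (−2.81 ± 0.33) and Adgrl3 (−0.81 ± 0.15) were lower, where 47.4% of all genes were called (28.4% higher and 19.0% lower) and the medians were −0.31 for the 10 and 0.06 for all genes. In mean CPM, Tenm1 was at 124 in ODC, 463 in OPC, 13.6 in AST and 12.3 in MG. Flrt3 was at 16.9, 43.7, 6.58 and 0 in the same order, so ODC lay below OPC for both. Adgrl1 (−0.12 ± 0.15), Flrt1 (−0.50 ± 0.30), Flrt2 (−0.83 ± 0.37) and Tenm3 (−0.88 ± 0.42) were not called. The mean of Tenm1 in ODC fell from 124 CPM to 7.96 with doublets left out, 8.29 with the 10 genes used in clustering and 6.65 at higher resolution, and its fold then pointed the other way (log2 −1.77, −1.98 and −2.35). The mean of Tenm2 in ODC fell from 734 to 167, 152 and 173 CPM under the same 3 changes, and its call was lost under the latter 2 (0.22, FDR 0.445, and 0.51, FDR 0.0732). Adgrl3 was lower in ODC by more with doublets left out (−1.93) and at higher resolution (−2.05), and Tenm4 was at 2.42 with doublets left out. Flrt3 in ODC went from 16.9 to 7.49, 8.69 and 7.95 CPM and lost its call under all 3 changes. COP moved alike, with Tenm2 at 1338 CPM against 362 with doublets left out and Tenm1 at 308 against 67.7. The class then held 233 of its 363 nuclei. With doublets left out, a list of 28 markers of CA1, CA3 and DG-M summed to 511 to 954 CPM over the COP libraries, against 1410 to 1690 with them. In ODC the same sum was 2150 to 3690 CPM without and 2250 to 3530 with doublets, with Man1a (1380 CPM) as its most abundant gene, and in OPC 1180 to 1390 against 1210 to 1420. The part of nuclei of neurons in these values of ODC and COP was not tested beyond this. Of the partners 9 were higher in ODC and 7 lower, including Unc5b (5.55 ± 0.31), Unc5c (4.50 ± 0.15), Fgfr2 (1.91 ± 0.09) and the G protein subunit Gna12 (1.36 ± 0.09).

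**Figure D2:**
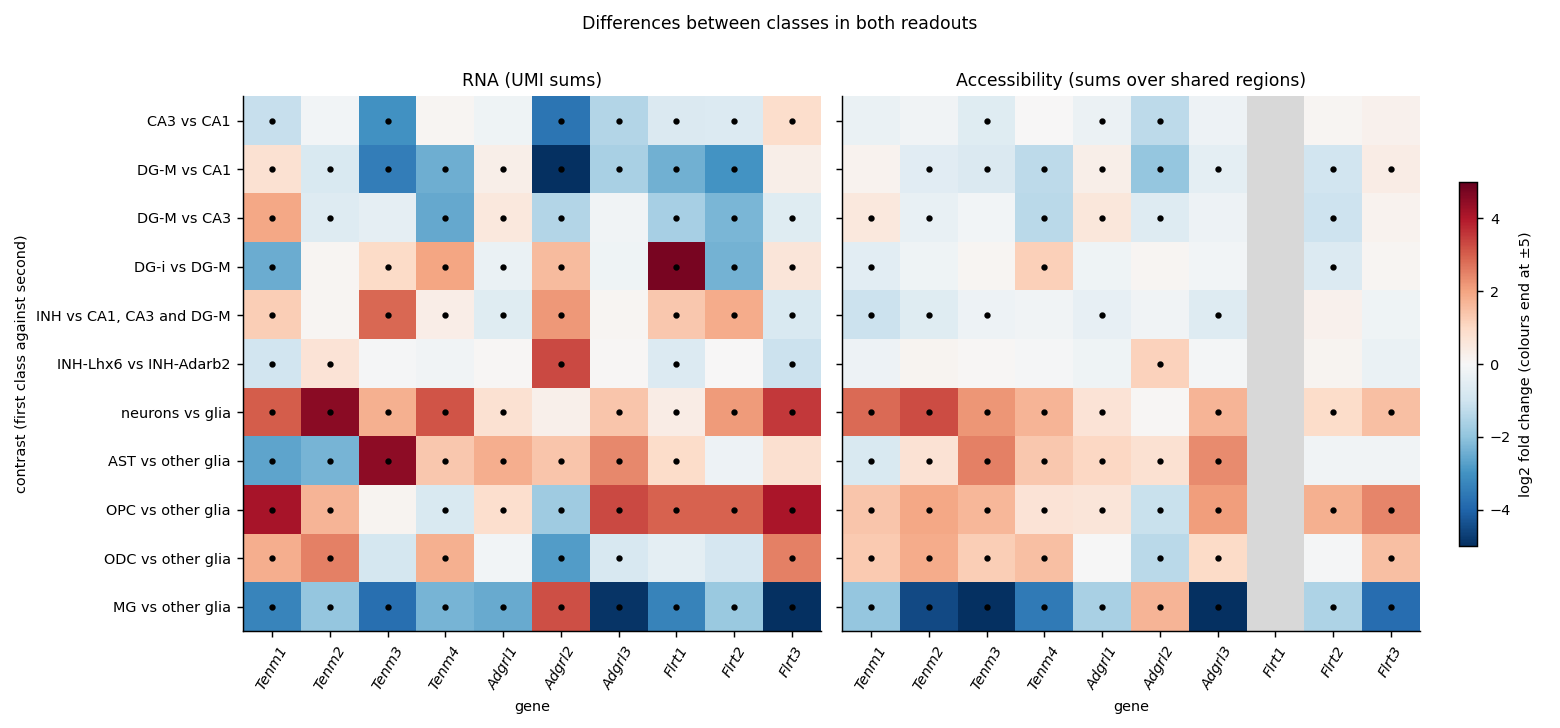
Log2 fold change of RNA and of accessibility summed over each gene in 11 contrasts between classes (rows) for the 10 genes (columns), with colours ending at ±5, dots for tests that passed and grey for Flrt1, which had no accessible region shared by the 4 libraries. The RNA map shows Adgrl2 and Tenm3 lower in CA3 and DG-M than in CA1, Flrt1 higher in DG-i, and Adgrl2 as the only gene higher in MG. In the accessibility map Adgrl2 and Tenm3 are again lower in CA3 and DG-M than in CA1, and Adgrl2 is again the only gene higher in MG.

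Accessibility of the same nuclei was read as transposition sites in CPM of that class and library, summed over the regions of each gene body and the 2.0 kb upstream that had a peak in all 4 libraries. Adgrl2 was at 118, 104, 99.3 and 109 in CA1, at 49.2, 41.6, 42.8 and 44.3 in CA3 and at 30.9, 28.9, 29.5 and 32.5 in DG-M. The 3 subfields were separate in every library, as for its RNA (CA3 against CA1 log2 −1.32 ± 0.11, DG-M against CA1 −1.95 ± 0.11, DG-M against CA3 −0.63 ± 0.12), although the last call was lost with 2.0 kb around transcription starts only (−0.03, FDR 0.934). Tenm3 was at 311, 304, 286 and 316 in CA1 and at 218, 211, 191 and 221 in CA3, with no overlap (−0.59 ± 0.08), and DG-M was lower than CA1 too (−0.72 ± 0.08). Tenm4 was at 642, 624, 622 and 652 in DG-i and at 249, 293, 228 and 282 in DG-M, again with no overlap (1.21 ± 0.07). Flrt2 was lower in DG-M than in CA1 (−0.95 ± 0.11) and CA3 (−1.04 ± 0.12), and lower in DG-i than in DG-M (−0.68 ± 0.13), and Tenm1 was higher in DG-M than in CA3 (0.53 ± 0.14) and lower in DG-i than in DG-M (−0.53 ± 0.13). With starts only, Tenm1 in DG-i was at −1.85, and the calls of Flrt2 in DG-i (−0.41, FDR 0.129) and of Tenm1 in DG-M against CA3 (0.52, FDR 0.206) were lost.

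Of the 9 genes with shared regions, 3 were called in accessibility between CA3 and CA1, all lower, where 18.7% of 22517 genes were called, and the third of them, Adgrl1 (−0.28 ± 0.08), was lost in DESeq2, with all regions and without HF replicate 1. Between DG-M and CA1 8 were called (2 higher and 6 lower, 35.6% of all genes), between DG-M and CA3 6 (2 higher and 4 lower, 36.9%) and between DG-i and DG-M 3 (1 higher and 2 lower, 45.1%). In MG Adgrl2 was at 151, 168, 109 and 148, higher than in the other glia (1.69 ± 0.10), and the other 8 genes were lower, with Adgrl3 at −5.42 ± 0.17 and Tenm3 at −5.41 ± 0.17 (62.1% of all genes called). Adgrl3 had 26 sites in MG in all, and its value ran from −6.44 to −4.87 with a library left out. Adgrl2 was also the only gene called between the inhibitory lineages, at 88.5, 83.4, 64.9 and 77.7 in INH-Lhx6 and 29.9, 38.3, 29.5 and 42.0 in INH-Adarb2 (1.15 ± 0.18, 6.22% of all genes). With starts only this call was lost (0.8, FDR 0.0584 in edgeR). In AST Tenm3 (2.51 ± 0.09) and Adgrl3 (2.35 ± 0.09) led 7 called genes (44.4% of all genes), all 9 were called in OPC (44.5%), 7 in ODC (47.0%) and 8 between neurons and glia, all higher in neurons (70.0%).

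RNA and accessibility were both called in 60 of 99 tests of 1 gene in 1 contrast, with the same sign in 55 and opposite signs in 5, while RNA was called in 77 in all and accessibility in 66 in all, these 60 included. Over all genes and the same contrasts 23.2% of 143304 tests were called in both, with the same sign in 89.4% of those, against 60.6% and 91.7% for the 10 genes. In INH, Tenm3 and Tenm1 were higher in RNA against CA1, CA3 and DG-M but lower in accessibility (Tenm3 −0.27 ± 0.07, Tenm1 −1.09 ± 0.13). The Tenm3 value did not pass with starts only (−0.19, FDR 0.175), with all regions (−0.08, FDR 0.353) and without HF replicate 1 or 2 (−0.24 and −0.20, under the minimum fold), and Tenm1 had the other sign with starts only (0.23, FDR 0.518). All 5 genes called in INH were lower in accessibility (45.1% of all genes called), but Adgrl3 was higher with starts only (0.44, FDR 0.000627). The other opposite pairs were Tenm2 in AST (accessibility 0.73 ± 0.09, not called with starts only, FDR 0.157), Tenm4 in OPC (0.68 ± 0.07), whose RNA call rested on HF1, and Adgrl3 in ODC (0.97 ± 0.11). Mean accessibility of Tenm2 was 95.6 in AST, 186 in OPC, 181 in ODC and 7.18 in MG. Tenm4 was at 248 in OPC, 338 in AST, 384 in ODC and 30.8 in MG. Adgrl3 was at 94.2 in ODC, 187 in AST, 170 in OPC and 3.93 in MG. Each thus lay above MG alone.

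Single regions showed where along the genes these differences lay. Tenm2 held 119 shared regions, Tenm4 102, Tenm3 58, Adgrl3 35, Adgrl2 16, Tenm1 15, Flrt2 11, Adgrl1 6 and Flrt3 3, most of them in introns. Of the 12 tested regions of Adgrl2, 9 were lower and 0 higher in CA3 than in CA1, where 31.6% of 133885 regions were called (14.9% higher and 16.7% lower), and 10 were lower and 0 higher in DG-M than in CA1 (55.5% of all regions, 26.9% higher and 28.6% lower). Of 47 regions of Tenm3, 17 were lower and 3 higher in CA3, and 25 lower and 8 higher in DG-M. Tenm4 turned with maturation, since 41 of its 97 tested regions were higher and 7 lower in DG-i than in DG-M (52.3% of all regions, 21.3% higher and 31.0% lower), and 56 were lower and 5 higher in DG-M than in CA1. Flrt2 had 6 of 10 regions lower and 1 higher in DG-M than in CA1 and 0 called between CA3 and CA1.

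The 4 regions printed above gave the values behind this. In transposition sites, the Tenm3 region was at 10.1, 15.3, 15.3 and 13.5 CPM in CA1 and at 2.01, 0.65, 1.04 and 1.07 in CA3 (log2 −3.61 ± 0.44), and it was at or near 0 in DG-M, with 1 library above 0, at 0.261. CA1 lay above CA3 in every library, OEXC had a mean of 7.0, and INH, the class with the most Tenm3 RNA, had a mean of 0.588. The Adgrl2 region was at 20.7, 22.8, 20.0 and 22.3 in CA1, at 7.36, 3.58, 7.78 and 4.84 in CA3 and at 5.22, 5.67, 4.04 and 5.62 in DG-M, with CA1 apart and the others overlapping (CA3 against CA1 −1.97 ± 0.26). The Tenm4 region was at 35.3, 29.9, 40.2 and 30.6 in DG-i and at 2.26, 1.84, 1.69 and 1.78 in DG-M (4.31 ± 0.26), although CA1 and CA3, with means of 3.39 and 2.69, were near DG-M while their Tenm4 RNA was near that of DG-i. The Flrt2 region was at 9.4, 3.28, 6.54 and 5.32 in CA1 and at 0.564, 0.527, 0 and 0.686 in DG-M (−3.71 ± 0.50), with a mean of 6.58 in CA3. These regions were picked for their change, so the tests describe them and are no independent support.

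**Figure D3:**
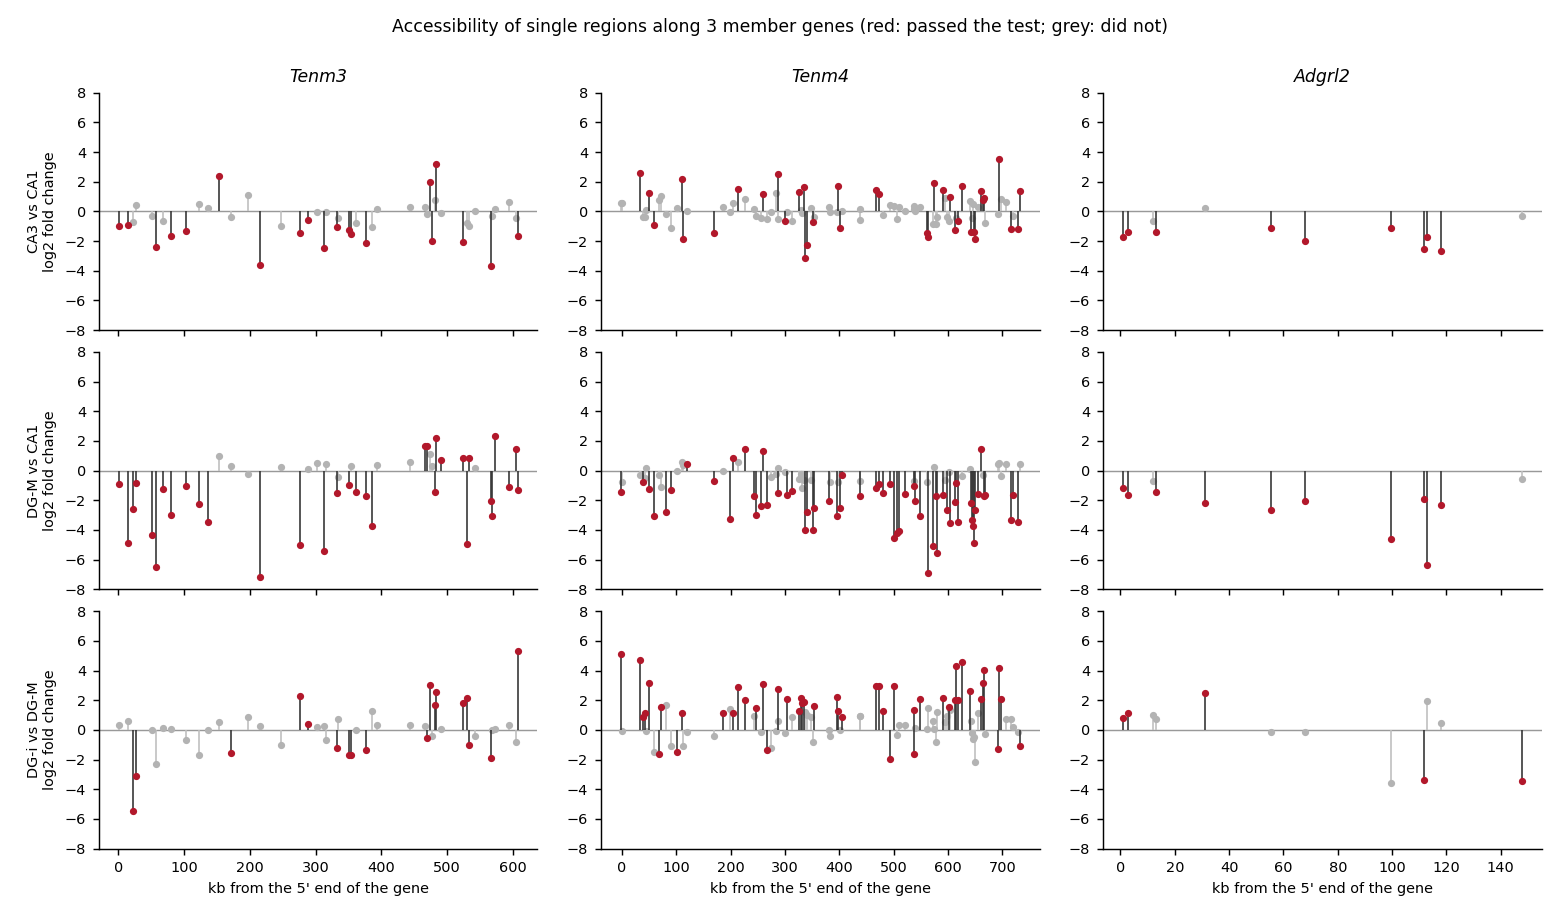
Log2 fold change of each tested region (y axis, ±8) by its distance in kb from the 5′ end of Tenm3, Tenm4 and Adgrl2 (columns) in CA3 against CA1, DG-M against CA1 and DG-i against DG-M (rows), with regions that passed the test in red and others in grey. The called regions of Adgrl2 all lie under 0 in CA3 and DG-M against CA1, and of the called regions of Tenm4 in DG-i 41 lie above 0 and 7 under it.

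Both promoters printed above lay in a region with a peak in all 4 libraries. The Flrt3 promoter region was at 19.5, 20.2, 21.7 and 17.5 CPM of transposition sites in CA1, with class means of 29.9 in OPC, 28.6 in DG-i, 27.7 in DG-M, 16 in ODC, 8.81 in AST and 1.66 in MG (11 sites in all). The low values in AST and MG went with 0 to 9.27 CPM of Flrt3 RNA in AST and 0 UMIs in MG. The Adgrl1 promoter region, in contrast, stayed open in every class, with means of 109 in OPC, 105 in AST, 93.2 in DG-M, 75.8 in CA1 and 36.9 in MG, its lowest class.

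Whether nuclei with more of a ligand had less of its receptor was asked within single subfields, with each nucleus thinned to 3000 UMIs and split in each library into nuclei above the median of 1 gene and the rest (with and without a UMI where the median was 0). In CA1, 391 nuclei were on the Tenm3-high and 501 on the Tenm3-low side, and 3 shallower nuclei were left out. Adgrl2 was at 142, 137, 185 and 140 CPM on the high and 203, 212, 213 and 336 on the low side. The high side was lower in 4 of 4 libraries, with no overlap (log2 −0.68 ± 0.15, FDR 0.0121 in edgeR), but the call was lost in DESeq2 (−0.66, FDR 1.0), without MF replicate 1 (−0.73, FDR 0.134) and without HF replicate 2 (−0.45, FDR 0.443). Tenm2 ran with Tenm3, at 4870, 6980, 6340 and 7530 CPM on the high and 4050, 5440, 4710 and 5830 on the low side, higher in 4 of 4 libraries (0.35 ± 0.05, FDR 4.98e-05). Thus 1 of 8 tested genes was higher and 1 lower, where 1.05% of 4969 genes were called (0.503% higher and 0.543% lower), with medians of 0.12 and 0.00.

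Splitting the same CA1 nuclei by Adgrl2 (345 with and 547 without a UMI) gave the other side of the pair. Tenm3 was at 689, 571, 917 and 539 CPM in nuclei with and 1150, 1240, 1210 and 1490 in nuclei without Adgrl2. The ranges did not overlap (−0.89 ± 0.10, FDR 2.59e-07), and the call held under every alternative run, from −0.70 to −1.11. Tenm2 (−0.38 ± 0.06, lower in 4 of 4 libraries) and Tenm1 (−0.55 ± 0.13, lower in 3 of 4) were lower too, although Tenm2 fell under the fold minimum with doublets left out (−0.24) and Tenm1 was lost in DESeq2, without HF replicate 2 and with doublets left out. In this split 0 of 8 genes were higher and 3 lower, where 1.01% of 5155 genes were called (0.33% higher and 0.679% lower), with medians of −0.21 and 0.01. Both CA1 splits use the same nuclei and are not independent of each other.

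Other genes moved with the 2 CA1 splits. Unc5d, the Flrt receptor, was lower on the Tenm3-high side (−1.55 ± 0.19), as were Robo1 (−0.56 ± 0.09) and the adhesion gene Pcdh11x (−1.59 ± 0.25), and Ntm (0.54 ± 0.07), Nrg1 (0.60 ± 0.08), Zbtb20 (0.56 ± 0.08) and Col11a1 (2.11 ± 0.32) were higher. In nuclei with Adgrl2 the adhesion genes Pcdh15 (−1.25 ± 0.11), Ncam2 (−0.98 ± 0.11) and Lingo2 (−0.86 ± 0.10) and the netrin receptor Dcc (−0.53 ± 0.07) were lower, and Man1a (0.59 ± 0.09), Ptn (0.76 ± 0.13), Kcnh7 (0.41 ± 0.07) and Epha6 (0.31 ± 0.05) were higher. Gm30382 was lower with Tenm3 (−1.34 ± 0.15) and higher with Adgrl2 (0.84 ± 0.14), and Luzp2 was lower with Tenm3 (−1.13 ± 0.14). Of 4 subiculum marker genes none had enough counts to be tested, and their summed level was 18.9 to 31.2 CPM on the Tenm3-high and 24.9 to 37.6 on the low side. Dentate markers were at 108 to 126 CPM on the Tenm3-high and 130 to 162 on the low side, interneuron markers at 97.5 to 147 and 143 to 233, and glial markers at 491 to 811 and 500 to 769. By Adgrl2, CA3 markers were at 383 to 457 CPM with and 454 to 549 without a UMI, ventral CA1 markers at 147 to 261 and 240 to 277, and dentate markers at 105 to 141 and 133 to 164. Of single list genes, Ndst4, the 1 marker of deep CA1, was higher with Adgrl2 (0.51 ± 0.13, FDR 0.0423 in edgeR), as were 2 of 8 CA1 markers (Man1a and Galntl6, the latter by 0.33 ± 0.06), while 0 of 5 tested CA3 markers passed. On the Tenm3-high side 1 of 5 tested CA3 markers was higher (Rnf182, 1.04 ± 0.23, FDR 0.0121 in edgeR) with a list median of 0.20, and 1 of 8 CA1 markers was lower (Man1a, −0.40 ± 0.08) with a list median of 0.02. Other members of both lists had values of the other sign, such as Grik4 (−0.27) for CA3 and Pou3f1 (0.34) for CA1, and were not called. The part of position within CA1, or of other cells, in the splits was not tested.

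The same split by Tenm3 was made in CA3 and DG-M, where it rests on fewer UMIs. In a separate draw at 3000 UMIs 19.9% of CA3 and 19.9% of DG-M nuclei had a Tenm3 UMI, against 10.6% of ODC nuclei (exact 95% interval 8.45 to 13.1%, counting error only), a class with a mean of 60.7 CPM, and these nuclei had medians of 17599, 7917 and 5490 UMIs before thinning. For Adgrl2 in CA1 the share was 38.0%, against 1.38% in ODC. A Tenm3 UMI in CA3 or DG-M is therefore not read as a sign that a nucleus expressed the gene, and the part of background RNA in these splits was not tested. In CA3, the 101 nuclei with a UMI were set against 386 without. Tenm2 was at 7320, 10600, 6120 and 7890 CPM with and 3910, 5740, 5170 and 5200 without Tenm3, higher in 4 of 4 libraries with no overlap (0.66 ± 0.08, FDR 3.97e-06). Tenm1 was at 246, 579, 358 and 302 CPM with and 179, 204, 218 and 135 without, again with no overlap (0.98 ± 0.19, FDR 0.0036), but this call was lost without MF replicate 2, and DESeq2 gave it no adjusted p. This made 2 of 7 tested genes higher and 0 lower, where 0.802% of 3118 genes were called (0.449% higher and 0.353% lower), with medians of 0.13 and 0.01. Outside the families, Cntn4 (1.06 ± 0.16), Lingo2 (0.82 ± 0.11), Hs6st3 (0.84 ± 0.13) and Gm32647 (1.02 ± 0.11) were higher with Tenm3, and Hs3st4 (−0.62 ± 0.10), Sgcd (−1.03 ± 0.17), St18 (−1.62 ± 0.29), Gabrg3 (−1.28 ± 0.23) and Lrp1b (−0.40 ± 0.08) were lower. St18 is on the list of glial markers, and Htr2c, on that of ventral CA1 markers, was lower too (−0.97 ± 0.24).

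In DG-M 278 nuclei had a Tenm3 UMI and 1172 had none. Tenm4 was at 143, 201, 186 and 204 CPM with and 75.3, 144, 89.2 and 117 without Tenm3, higher in 4 of 4 libraries (0.83 ± 0.16, FDR 0.000232). The call was lost in DESeq2, without HF replicate 1, at 2000 UMIs (0.21) and with doublets left out (0.11). It was the 1 gene called of 7 tested, where 0.206% of 6786 genes were called (0.147% higher and 0.0589% lower), with medians of 0.02 and 0.01. Nrg1 (0.81 ± 0.08), Nrxn3 (0.45 ± 0.07), Cntn4 (0.82 ± 0.15) and Brinp3 (0.70 ± 0.13) were higher with Tenm3 as well. The genes lower with Tenm3 were the haemoglobins Hbb-bs (−0.80 ± 0.13), Hba-a1 (−1.05 ± 0.18), Hba-a2 (−0.83 ± 0.19) and Hbb-bt (−0.90 ± 0.22), whose RNA belongs to red blood cells.

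**Figure D4:**
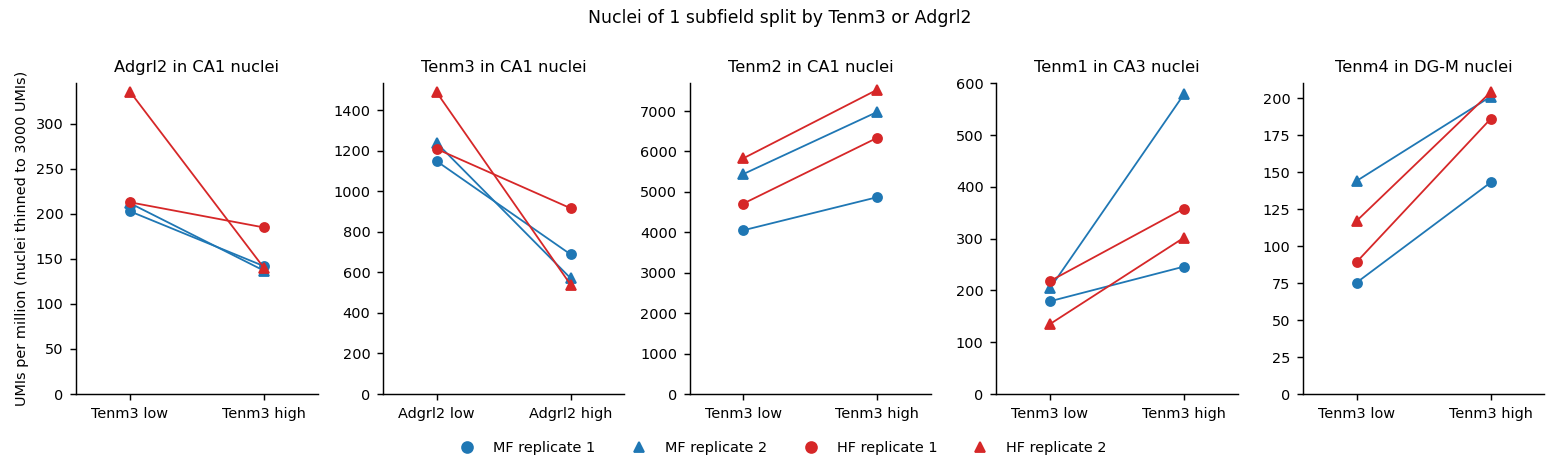
Level (CPM of thinned UMIs, linear axis from 0) on the low and the high side of each split, with 1 line per library (MF blue, HF red), for Adgrl2 by Tenm3, Tenm3 by Adgrl2 and Tenm2 by Tenm3 in CA1, Tenm1 by Tenm3 in CA3 and Tenm4 by Tenm3 in DG-M. All 4 lines fall for the Tenm3 and Adgrl2 pair in CA1, and all 4 rise for the other 3 panels.

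Between the diets 0 of 118 tests of a member gene in RNA passed, over all nuclei, EXC (all 4818 excitatory nuclei) and 11 classes, and 9 or 10 of the 10 genes could be tested in each of them except MG, where 3 could. On simulated data edgeR recovered 22.4% (AST) to 55.2% (EXC) of the genes that differed 2-fold between the diets, among the groups tried. At 1.5-fold it recovered 2.99% (AST) to 10.4% (EXC), and at 4-fold 90.9% (AST) to 97% (DG-M). Differences of 2-fold or less could thus be missed. At an unadjusted p under 0.05 edgeR had 199 of 18373 genes over all nuclei. In the other groups of nuclei it had from 144 of 9335 (DG-i) to 257 of 11418 (OEXC). Over all genes 0.0% were called in most groups, 0.00943% in INH, 0.0549% in OPC and 0.051% in COP. Over all nuclei the members lay between −0.20 and 0.15 on the log2 scale, with a median of 0.06 and 0.01 for all genes. The smallest p in all nuclei, EXC and CA1 belonged to Adgrl1, at 123, 97.4, 89.9 and 90.9 CPM in EXC (−0.21 ± 0.16, FDR 1.0). Both HF libraries were lower than both MF libraries, but MF1 stood apart from the other 3. A Wilcoxon test that takes nuclei as replicates, the kind of test the published methods describe, was run over EXC as well. With it Adgrl1 was called (log2 −0.26, Bonferroni p 0.00952) as 1 of 148 called genes among 14905 (0.993%), and the other 9 members were not.

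In RNA only Tenm1 in COP and Tenm2 in MG had an unadjusted p under 0.05 in edgeR among the 118 member tests. Tenm1 in COP was at 293 and 473 CPM in the MF libraries against 209 and 257 in the HF libraries (−0.70 ± 0.28, FDR 1.0), without overlap, but the value was −2.31 with doublets left out, and the sign turned with the members used in clustering (0.23) and at higher resolution (0.6). Tenm2 in MG, where its level was near the lowest of all classes, was at 45.6 and 56.1 CPM in the MF libraries against 221 and 77 in the HF libraries (1.66 ± 0.43, FDR 0.646). With all 4 libraries and no low-count filter it passed (1.6, FDR 0.0137 in edgeR). HF1, with 69 UMIs, stood apart, and without HF replicate 1 the difference was 0.64 (FDR 0.975), while it passed without HF replicate 2 (2.18, FDR 2.33e-06) and without MF replicate 2 (1.74, FDR 0.0408). Tenm4 in OPC likewise passed without HF replicate 2 (−4.53, FDR 0.000148), which left the HF library with 1 UMI of the gene as the only one, and not with all 4 libraries (−0.51 ± 0.57, FDR 1.0). Macrod2, another gene high in neurons, was highest in MG of HF1 too, at 112 CPM against 18.2, 16.8 and 29.9, and the part of this in the value of Tenm2 was not tested. Of the tests whether the diet effect differed between classes (CA3 and DG-M against CA1, DG-i against DG-M) 0 of 30 passed, where 0.0%, 0.0078% and 0.0% of all genes did, and 480 to 555 genes had an unadjusted p under 0.05. Flrt1 had the smallest p among members there (DG-i against DG-M, 0.88 ± 0.38, FDR 1.0 in edgeR).

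In accessibility 0 of 113 member tests between the diets passed in edgeR, against 0.0619% of all genes over all nuclei, 0.031% in EXC, 0.00483% in OEXC, 0.00551% in COP, 0.0259% in ODC and 0.0% elsewhere, and 459 to 951 genes per group of nuclei had an unadjusted p under 0.05. Among members this level was reached by Tenm3 in INH (−0.26 ± 0.10), Adgrl3 (−0.26 ± 0.12) and Tenm4 (−0.23 ± 0.11) in AST, and Tenm4 (0.70 ± 0.31) and Adgrl2 (−0.31 ± 0.15) in MG, all at an FDR of 1.0 in edgeR.

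**Figure D5:**
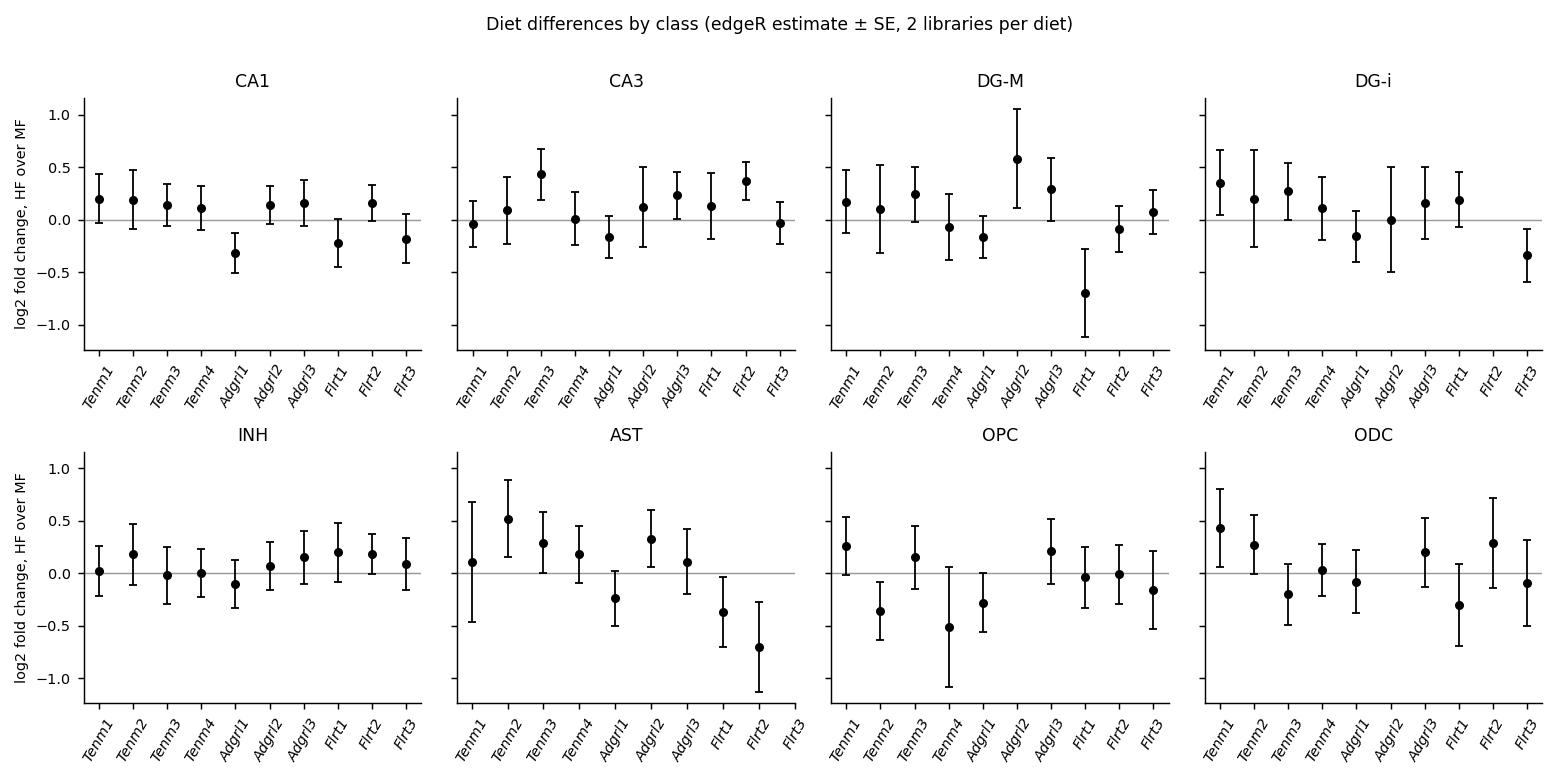
Log2 fold change of HF over MF with its SE for each tested member gene in CA1, CA3, DG-M, DG-i, INH, AST, OPC and ODC. None of the points passed the test, and the error bars of most of them cross 0.

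Over the 13 class means, the 10 genes were set beside 13511 tested genes by the Pearson correlation of log2(CPM + 1), a description in which all points come from the same 4 libraries. Tenm1 was most like the receptor subunit gene Gabrb2 (r = 0.971) and Dpp6 (0.964), Tenm2 like Mir124a-1hg (0.981) and Ksr2 (0.978), and Tenm3 like Rpgr (0.942) and Kcnt1 (0.919). The genes most like Tenm4 were Gm15414 (0.969) and C230038L03Rik (0.967), which both lie inside Tenm4 on the opposite strand. Adgrl1 was most like Gm17167 (0.975) and Sybu (0.94), Adgrl3 like Uggt2 (0.949) and Dmd (0.938), and Adgrl2 had the weakest matches, Cds1 (0.839) and Ttc39b (0.836). Flrt1 was most like Pcdhb14 (0.91) and Syt9 (0.909), Flrt2 like 5530401A14Rik (0.931) and Grm4 (0.929), and Flrt3 like Slc41a2 (0.976) and Lonrf2 (0.973). Among the members the most alike pairs were Adgrl1 and Adgrl3 (0.847), Tenm1 and Tenm2 (0.836) and Tenm2 and Tenm4 (0.796), and Adgrl2 was least like Flrt3 (−0.364) and Adgrl1 (−0.285).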

How the data were processed

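Hippocampi of wild-type pups were profiled by single-nucleus multiome, with 2 libraries per maternal diet. The deposited matrices hold raw counts per nucleus, UMIs per gene and cut sites per ATAC peak, which the authors made with Cell Ranger ARC 2.0.1 on mm10 according to the paper and the submitters' processing notes, which also list Seurat. Peaks had been called in each library separately and were merged here. The members and gene lists were chosen with earlier results of these data known.

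Kept nuclei had 1000 to 70000 ATAC counts, 500 to 7000 genes and less than 2.0% of UMIs from mitochondrial genes. Scrublet's automatic threshold called from 0 to 22.0% per library, so a score of 0.05 marked doublets. Clusters with a median score over 0.05 (1254 nuclei) entered no class, and the other 682 nuclei over it were left out only as an alternative. Another 1496 nuclei were in clusters without a name. Those among the inhibitory and excitatory nuclei counted in INH and EXC, and none of the 1496 entered any other class. Nuclei were clustered in scanpy 1.11.5 (3000 variable genes without the members, 20 components, 20 neighbours, Leiden resolution 0.8, sub-clusters at 0.5) and named from at least 3 markers found in 10% of nuclei and 2-fold enriched, a naming rule revised after the first clusters were seen and before members were tested. Counts were summed per library and class and tested with edgeR 4.0.16 in R 4.3.3 (quasi-likelihood, TMM, low-count filter, Benjamini-Hochberg FDR under 0.05 and at least 1.2-fold), which was tested on simulated data. Fits between classes had the library as a term. Named were all members, up to 4 partners per contrast by p (some of them are not reported here), 5 genes per direction and split, and 2 genes most like each member. Alternatives, fixed with the design, were DESeq2 1.42.0, its size factors, each library left out in turn, no low-count filter, no minimum fold, no library term, doublets left out, members used in clustering, a higher resolution, 2000 UMIs in the splits, all regions, start sites only, a replicate block and a Wilcoxon test over nuclei. Tests of single regions and leaving out libraries in the diet by class fit were added after seeing the data. Median depth ran from 1756 UMIs per nucleus in MG to 17438 in CA3. The share of nuclei with a UMI at 3000 UMIs and the calls in both assays over all genes were added after seeing the data.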

Additional observations from a re-analysis of the deposited data

How the results depend on the processing

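Of the counts of called members, those over all classes stayed between 80 and 91 (87 in the report) for RNA and between 61 and 72 (66) for accessibility under every alternative run, and those between the diets in accessibility at 0. The call of Tenm1 in ODC turned to −1.77 with doublets left out, −1.98 with the members used in clustering and −2.35 at higher resolution. Between the inhibitory lineages 3 members were called with no library term, with doublets left out and with the members used in clustering, and 2 to 4 with a library left out (2 without MF replicate 1), against 5. Of the counts in splits, 8 in all, 4 were called in DESeq2 and 5 with doublets left out, and the cause was not tested. By split these were 1 in DESeq2 and 1 to 2 with a library left out for Tenm3 in CA1, 1 with doublets left out for Adgrl2 in CA1, 1 in DESeq2 and 1 to 2 with a library left out for Tenm3 in CA3, and for Tenm3 in DG-M 0 in DESeq2, 0 at 2000 UMIs, 0 with doublets left out, 2 with no fold minimum and 0 to 2 with a library left out. In accessibility, no fold minimum gave 5 calls each in CA3 against CA1 and DG-i against DG-M. With 2.0 kb around transcription starts only, 5 were called in DG-M against CA1, 3 in DG-M against CA3 and 0 between the inhibitory lineages, and Tenm2 in DG-M against CA3 turned to 0.06, Adgrl3 and Tenm1 in INH to 0.44 and 0.23, and Tenm3 in COP between the diets to 0.15.

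Between the diets 1 member was called with no low-count filter (Tenm2 in MG), 0 to 2 with a library left out (0 to 1 in OPC and 0 to 1 in MG), and 1 in EXC by the Wilcoxon test, which takes nuclei as replicates. Differences that had not passed turned sign for Tenm2 in OPC (0.09 with doublets left out), Tenm1 in COP (0.23 with the members used in clustering and 0.6 at higher resolution), Tenm1 in ODC (−0.05 to 1.1 with a library left out) and Tenm4 accessibility in CA3 (−0.2 to 0.02). The labels do not say what libraries with the same replicate number share. Deviations of same-numbered libraries correlated at 0.0797 to 0.279, positive in each of 13 groups of nuclei, with 2 pairs. What lies behind this was not tested. With the replicate number as a block, 0 members were called between the diets in RNA and 0 in accessibility, so the pairing changed no call.

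Depth limits the low values most. Tenm4 in OPC, Flrt3 in AST and MG and Adgrl2 in DG-M rest on few UMIs per library.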

Other observations

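Cajal-Retzius cells (CR) and vascular and leptomeningeal cells (VAS) entered no test, with 134 and 156 nuclei and as few as 21 per library. With doublets left out, VAS held 113 nuclei with 405230 of its 679291 UMIs. CR then held 117 nuclei with 445380 of its 617038 UMIs. The values given here include these doublets. CR, early-born neurons that secrete reelin, had the highest class mean of Tenm4, at 1070, 858, 899 and 856 CPM (MF1, MF2, HF1 and HF2), and of Flrt3, at 89.8, 92, 68.8 and 150 CPM, with the Flrt3 range overlapping that of DG-i. Tenm3 in CR ran from 45.7 CPM in HF2 to 2766 in HF1, with 1212 in MF1 and 920 in MF2, a wider spread than in any class that was tested. VAS had the highest class mean of Flrt2, at 461, 1067, 608 and 422 CPM, a range that overlapped INH at its lower end. Adgrl4, an endothelial relative of the latrophilins, was at 203, 238, 37.1 and 37.9 CPM in VAS and had 0 UMIs in CR. VAS pooled 3 clusters whose shares differed between libraries: one led by genes such as Flt1 and Cldn5, with Adgrl4 among its top 10, held 4, 10, 5 and 4 nuclei (MF1, MF2, HF1 and HF2), and one led by Ptgds held 7, 25, 44 and 21 of the 21, 41, 59 and 35. The VAS values of Flrt2 and Adgrl4 are therefore not a comparison of diets.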
